A study of Bos taurus with 11 samples.

Results

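FOXA3 and HEYL, a pair of transcription factors, were followed in liver RNA of lactating dairy cows. Both were selected on their difference between cows in severe and in mild negative energy balance, so the values of that comparison are a description of the choice and not a test of it. They are 2 of the 21996 genes counted, with the identifiers ENSBTAG00000012104 for FOXA3 and ENSBTAG00000008688 for HEYL, and both belonged to the 13960 genes that reached 5 reads in some cow and were tested.

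FOXA3, also called hepatocyte nuclear factor 3 gamma, is a forkhead factor of the FOXA family, whose members open chromatin at enhancers of genes that hepatocytes use, such as those of plasma proteins and of glucose metabolism. HEYL is a basic helix-loop-helix repressor of the Hairy and Enhancer-of-split related family. Its gene is switched on when a Notch receptor is cleaved by contact with a ligand on a neighbouring cell and the released receptor fragment joins RBPJ in the nucleus, and in many tissues it is known from smooth muscle and other cells of the vessel wall.

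The study set out to learn how the liver responds when a cow in early lactation spends more energy than it takes in. The libraries analysed here were of polyadenylated RNA of frozen liver from 11 multiparous Holstein-Friesian cows sampled about day 14 after calving, each cow being a separate animal. The 5 cows in mild negative energy balance (MNEB) had free access to grass silage with a larger allowance of concentrate and a single milking a day, and the 6 cows in severe negative energy balance (SNEB) had restricted silage, less concentrate and more frequent milking. Diet and milking were changed together and the sequenced animals were picked from larger groups by their energy balance, so neither treatment can be told apart from the other or from that choice.

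These libraries were run on 19 lanes of 3 flow cells, named A, B and C. Reads on genes came to between 1774011 and 4005322 per MNEB cow, with a median of 3369237, and to between 1869837 and 6852142 per SNEB cow, with a median of 3941504. Levels are given as CPM, the reads of a gene for each 1000000 reads of its library, after scaling by the trimmed mean of M-values (TMM). Exact Clopper-Pearson 95% intervals are given for counts, and cover counting error only.

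FOXA3 was well covered in each cow. It had 107 CPM in MNEB1, 223 in MNEB2, 113 in MNEB3, 118 in MNEB4 and 175 in MNEB5, from 191 to 693 reads per cow. In SNEB cows it ran from 19.3 CPM in SNEB5 to 102 in SNEB1 with a median of 61.2, from 81 to 449 reads. MNEB2 and MNEB5 stood above the other MNEB cows, and no SNEB cow reached the lowest MNEB cow. SNEB5 stood 2.87-fold below the next SNEB cow.

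The group means of FOXA3 were 147 ± 50.6 CPM (SD, n = 5) in MNEB cows and 64.1 ± 28.4 CPM (SD, n = 6) in SNEB cows. On the log2 scale SNEB differed from MNEB by -1.20 (SE 0.32), a 2.30-fold lower level that is given without a test. In these bulk samples, fewer cells that hold the transcript and less of it per cell cannot be told apart. The separation of the groups was narrow. MNEB1 exceeded SNEB1 by 1.05-fold, with an exact 95% interval from counting error alone of 0.921 to 1.20.

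HEYL had 212 CPM in MNEB1, 164 in MNEB2, 168 in MNEB3, 83.0 in MNEB4 and 131 in MNEB5, from 278 to 866 reads per cow. In SNEB cows it ran from 39.2 CPM in SNEB3 to 112 in SNEB6 with a median of 60.2, from 73 to 492 reads. MNEB1 was the high cow and MNEB4 the low cow of the MNEB group. The groups overlapped through a single pair of animals, since SNEB6 lay above MNEB4, and in 29 of the 30 pairs of an MNEB with an SNEB cow the MNEB cow was higher.

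The group means of HEYL were 152 ± 48.1 CPM (SD, n = 5) in MNEB cows and 65.7 ± 25.0 CPM (SD, n = 6) in SNEB cows. On the log2 scale this was a difference of -1.19 (SE 0.26), again without a test. The size was close to that of FOXA3. Of the 2 genes, 1 had groups that did not overlap, beside 0.537% of all genes tested that had all SNEB cows below the lowest MNEB cow, and nothing is read from that count because the genes were chosen for this difference.

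**Figure D1:**
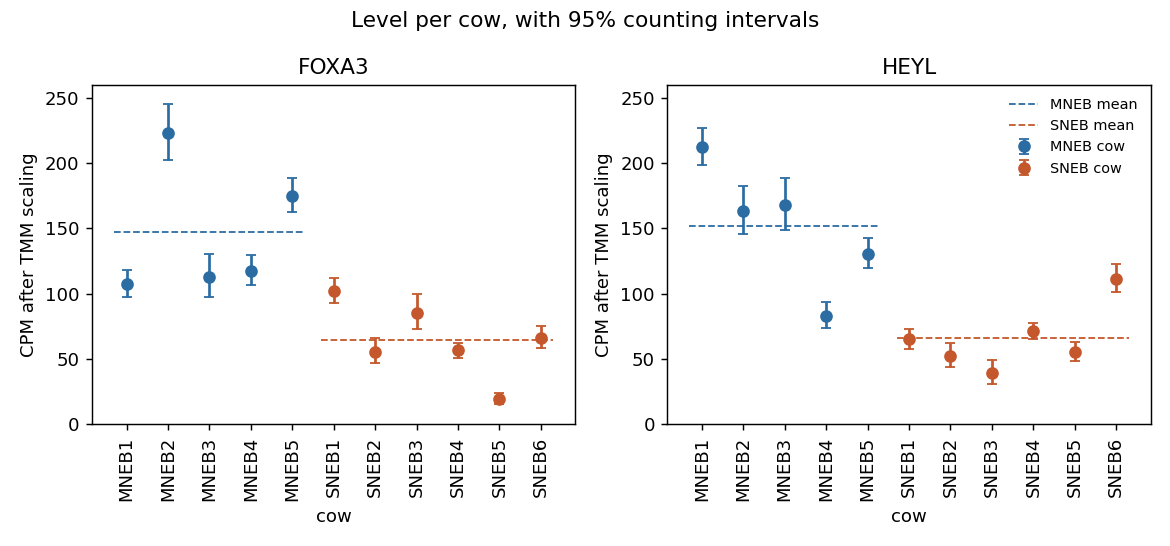
Level of FOXA3 (left) and HEYL (right) in each cow, in CPM after TMM scaling, with exact 95% counting intervals as bars and group means as dashed lines. FOXA3 has its lowest point at 19.3 CPM in SNEB5, and HEYL of SNEB6, at 112 CPM, lies above HEYL of MNEB4, at 83.0 CPM.

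Put in order of FOXA3, the cows ran MNEB2, MNEB5, MNEB4, MNEB3, MNEB1, SNEB1, SNEB3, SNEB6, SNEB4, SNEB2 and SNEB5. Of the 10 steps between neighbours, 4 had an exact 95% interval of the ratio of their levels that left out 1, those below MNEB2, below MNEB5, below SNEB3 and above SNEB5. The 5 cows from MNEB4 to SNEB3 and the 3 from SNEB6 to SNEB2 thus formed runs in which the intervals of all neighbours held 1. These intervals do not cover differences between flow cells. MNEB2 was run on flow cell C only and SNEB3 on flow cell B only, and the part of the flow cell in the steps was not tested. SNEB5 lay 2.87-fold below the next cow, with 81 reads and 19.5 CPM before TMM scaling (exact 95% interval 15.5 to 24.3).

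Put in order of HEYL, the cows ran MNEB1, MNEB3, MNEB2, MNEB5, SNEB6, MNEB4, SNEB4, SNEB1, SNEB5, SNEB2 and SNEB3. Here 5 of the 10 steps had an interval that left out 1, those below MNEB1, MNEB2, MNEB5, SNEB6 and MNEB4, the last by little. From SNEB4 down, the intervals of all neighbours held 1. Apart from the group, the orders of the 2 genes had little in common, and MNEB1 was the lowest MNEB cow for FOXA3 and the highest for HEYL.

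The spread inside a group exceeded counting error, which is only a part of technical noise. The coefficient of variation of FOXA3 was 34.3% among MNEB and 44.3% among SNEB cows, where counting alone gives 5.26% and 7.65%. That of HEYL was 31.7% and 38.0%, where counting gives 5.17% and 7.53%. The highest SNEB cow had 5.28 times the FOXA3 of the lowest, and 2.85 times the HEYL.

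Because FOXA3 and HEYL were lower by nearly the same factor on average, the number of FOXA3 reads for each HEYL read was much alike in the groups. Its geometric mean was 0.975 in MNEB and 0.917 in SNEB cows. This ratio is taken within a library, so no scaling enters it, and it compares cows and not the transcript numbers of the genes, whose lengths were not used. In MNEB cows it was 0.506 in MNEB1, 1.37 in MNEB2, 0.673 in MNEB3, 1.42 in MNEB4 and 1.34 in MNEB5. In SNEB cows it ran from 0.349 in SNEB5 to 2.18 in SNEB3, with a median of 0.929. Single cows thus spanned a far wider range than the group means.

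The ratio of SNEB3 had an exact 95% interval of 1.64 to 2.91, and that of SNEB5 one of 0.268 to 0.451. These are cows of the same group, and counting error does not reach from one to the other. SNEB3 was the lowest cow for HEYL and next to the highest of its group for FOXA3, while SNEB5 was the lowest for FOXA3 and stood in the middle of its group for HEYL.

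Each gene was chosen by itself, so how their values pair up over the cows of a group played no part in the choice. Within the SNEB group FOXA3 and HEYL showed no detectable relation. Pearson's r of log2(CPM + 1) was 0.055 over the 6 cows (two-sided exact permutation test over 720 pairings, p = 0.983). This was 1 relation, so no adjustment was needed. Without SNEB5 and SNEB1, the cows farthest from the FOXA3 median, r was -0.397 over 4 cows. With a single cow left out it ran from -0.23 without SNEB5 to 0.38 without SNEB3. With 6 cows, a weak or moderate relation would not be detectable. No r was taken on the lanes of a single flow cell, of which B and C each held 4 SNEB cows.

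Over all 11 cows r was 0.587, and after the mean of each group was removed it was 0.035. The first value contains the difference for which both genes were picked. Among 9796 other genes with a mean of at least 10 CPM, HEYL ranked 390th by its r with FOXA3 before and 4400th after group means were removed. The likeness of the genes over the 11 cows thus lay in the group means, which the choice had set, and little of it remained in the spread of single cows.

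**Figure D2:**
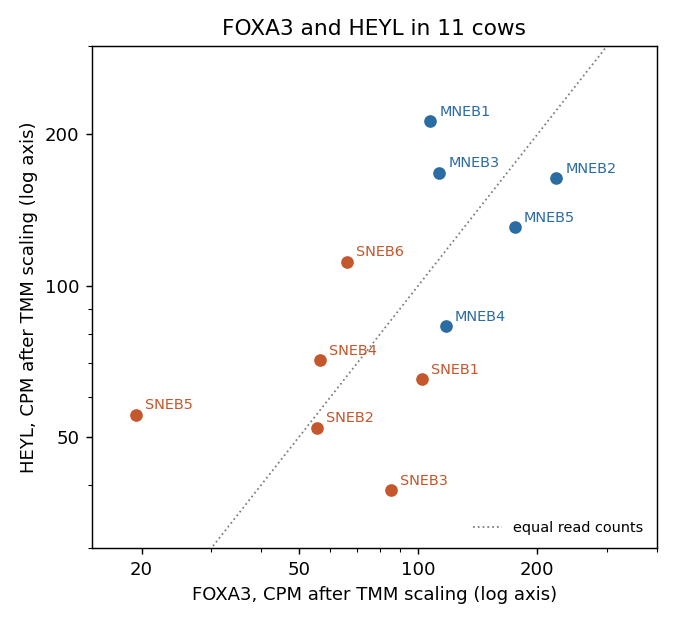
FOXA3 against HEYL in the 11 cows, both in CPM after TMM scaling on log axes, with a dotted line where read counts are equal. Most MNEB cows lie beyond the SNEB cows on both axes, except that MNEB4 has less HEYL than SNEB6, and within a group the points scatter on both sides of the line, from SNEB5 at 0.349 to SNEB3 at 2.18 FOXA3 reads for each HEYL read.

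Because 7 libraries were run on more than 1 lane, the measurement of each gene could be repeated within an animal. For HEYL the highest lane of a library exceeded the lowest by 1.04-fold to 1.24-fold, and the exact 95% interval of that factor held 1 in 7 of 7 libraries. For FOXA3 the factor was 1.11 to 1.89, and its interval held 1 in 5 of 7. No lanes of HEYL thus differed beyond counting error, and those of FOXA3 did in MNEB1 and SNEB6.

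These discrepant libraries had been run on flow cells B and C. FOXA3 of SNEB6 had 71 reads, or 44.2 CPM, on flow cell B and 169 reads, or 83.7 CPM, on flow cell C. FOXA3 of MNEB1 had 189 reads, or 90.6 CPM, on flow cell B and 249 reads, or 125 CPM, on flow cell C. Both libraries therefore gave more FOXA3 on flow cell C.

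A comparison of flow cell C with B inside each library, chosen after seeing the data, is independent of the group difference and could be tested. Of the 5 libraries run on both, FOXA3 was higher on flow cell C in 5 and HEYL in 4. For FOXA3 the log2 ratio of flow cell C to B was 0.32 (SE 0.07, edgeR quasi-likelihood test with Benjamini-Hochberg adjustment, adjusted p = 2.08e-05). The lanes of MNEB1 and SNEB6 had prompted the comparison, so this value contains what led to it. Without both libraries the log2 ratio of FOXA3 was 0.19 (SE 0.07, edgeR adjusted p = 0.0552). For HEYL it was 0.10 over the 5 libraries (SE 0.06, edgeR adjusted p = 0.147). FOXA3 passed the limit of 0.1 and HEYL did not, and whether the 2 genes differ from each other in this was not tested.

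FOXA3 is no exception in this respect. Of 13228 genes tested between the flow cells, edgeR called 7444, or 56.3%, with 3547 higher and 3897 lower on flow cell C, and DESeq2 called 5009. In 49.0% of genes the 5 libraries moved in the same direction. The median size of the log2 ratio over all genes was 0.29, so the 0.32 of FOXA3 was ordinary, at the 55.2 percentile, and the 0.10 of HEYL was small, at the 18.2 percentile. The p-values measure the repeatability of lanes of these 5 libraries and not a difference between animals.

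**Figure D3:**
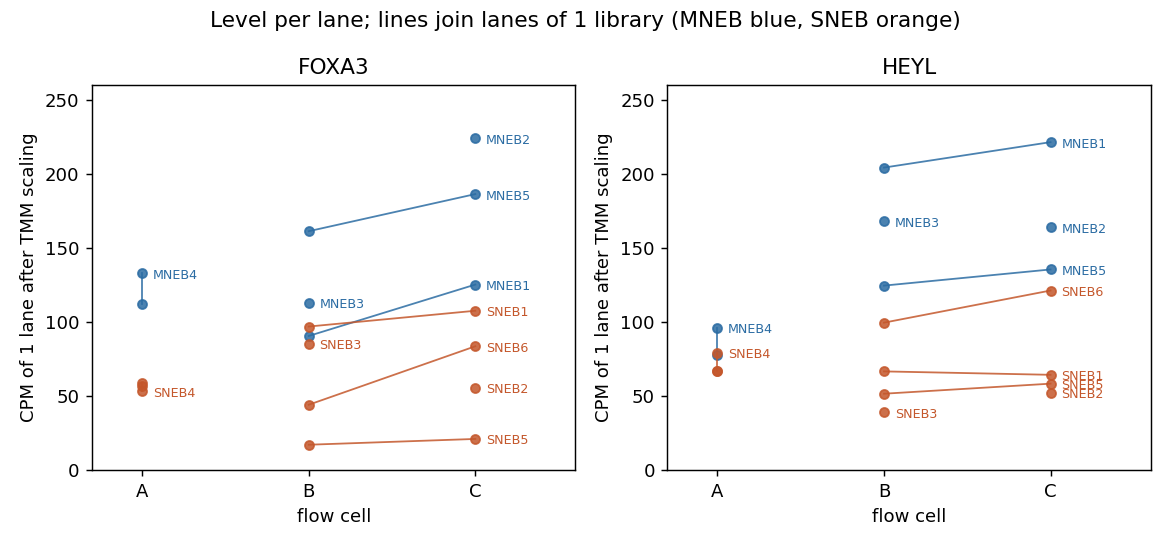
Level of FOXA3 (left) and HEYL (right) in each of the 19 lanes by flow cell, in CPM after TMM scaling over the lanes, with lines that join lanes of 1 library. FOXA3 rises from flow cell B to flow cell C in each of the 5 libraries run on both, most in SNEB6, from 44.2 to 83.7 CPM.

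The groups were nearly balanced over the flow cells. Flow cell A held 1 cow of each group, B alone 1 of each, C alone 1 of each, and B with C 2 MNEB and 3 SNEB cows. On the lanes of flow cell B, with 3 MNEB and 4 SNEB cows, the lowest MNEB value of FOXA3 was 91.5 CPM in MNEB1 and the highest SNEB value 97.2 in SNEB1, so the groups overlapped there. On the lanes of flow cell C, also with 3 and 4 cows, the lowest MNEB value of FOXA3 was 125 CPM and the highest SNEB value 108, so they did not. The log2 fold change of FOXA3, SNEB over MNEB, was -0.99 (SE 0.44) on flow cell B and -1.42 (SE 0.41) on flow cell C, in fits chosen after seeing the data.

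For HEYL the groups did not overlap on either flow cell. Its lowest MNEB value was 125 CPM and its highest SNEB value 100.1 on flow cell B, and on flow cell C these were 138 and 121. The log2 fold change of HEYL was -1.37 (SE 0.28) on flow cell B and -1.23 (SE 0.28) on flow cell C. Both flow cells share 5 of their 7 cows, and no difference between flow cells in these values was tested for either gene. Flow cell A, with a single cow of each group, gave 118 CPM of FOXA3 in MNEB4 and 56.4 in SNEB4, and 83.0 CPM of HEYL in MNEB4 and 71.0 in SNEB4. For HEYL the gap on flow cell A was thus small, and MNEB4 was also the only MNEB cow that any SNEB cow exceeded.

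**Figure D4:**
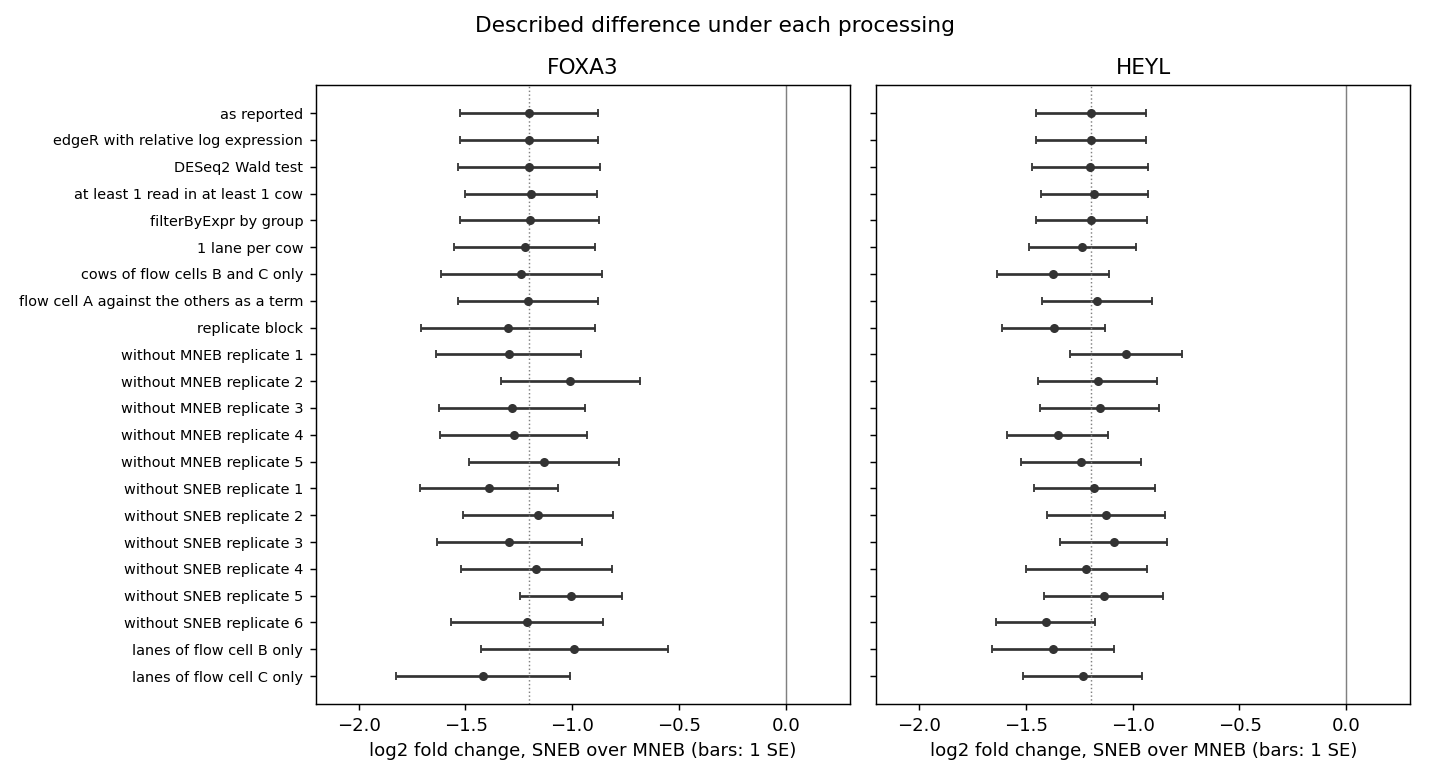
Log2 fold change, SNEB over MNEB, of FOXA3 (left) and HEYL (right) as reported and under each other processing, with bars of 1 SE and a dotted line at the reported value. FOXA3 lies between -1.42 and -0.99 and HEYL between -1.41 and -1.03 in these fits, which describe the chosen difference and do not test it.

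Other genes of the Notch pathway could be followed only where a name was paired with an identifier, which held for 391 genes that the study had itself listed for a group difference in these animals. Of 58 pathway genes on a list of ligands, receptors, processing enzymes, nuclear partners, inhibitors and targets, 4 had an identifier, all of them inhibitors or corepressors, and 0 passed in edgeR at an adjusted p under 0.1, beside 0.544% of all genes tested (0.330% higher and 0.215% lower in SNEB cows). Each of these 4 had an unadjusted edgeR p under 0.05, beside 8.35% of all genes, and DESeq2 called 2, beside 2.08% of all genes, which is not independent evidence given how the names came about. The DLL and JAG ligands, the receptors, RBPJ and the HES and HEY relatives of HEYL were not analysed here.

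NUMB, an adaptor that takes Notch receptors out of the cell membrane, averaged 208 CPM in MNEB (SD 28.3, n = 5) and 149 in SNEB cows (SD 16.3, n = 6). Its groups did not overlap, and its log2 fold change, -0.49 (SE 0.12), missed the limit in edgeR (adjusted p = 0.119) and passed it in DESeq2 (adjusted p = 0.0109). DTX1, a ubiquitin ligase of the Deltex family that binds Notch, ran from 7.09 to 20.9 CPM in MNEB and from 15.7 to 122 CPM in SNEB cows (log2 fold change 1.69, SE 0.44, edgeR adjusted p = 0.172, DESeq2 adjusted p = 0.00797). The DTX1 value was 2.42 on lanes of flow cell B, 1.20 on those of flow cell C and 1.23 without SNEB3. The corepressor genes TLE1 and TLE4 had log2 fold changes of -0.53 (SE 0.17, edgeR adjusted p = 0.316) and -0.88 (SE 0.29, edgeR adjusted p = 0.335). In sign, NUMB, TLE1 and TLE4 went with HEYL and DTX1 went against it, and the median over the 4 was -0.51. All 4 had a name only because the study had listed them for a difference between these groups. Nothing about the pathway is therefore read from these signs or this median. After group means were removed, r with HEYL over the 11 cows was -0.35 for NUMB, -0.41 for DTX1, 0.34 for TLE1 and 0.03 for TLE4, values that carry no p.

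Of 52 other forkhead and liver-enriched factors, 4 had an identifier, each again from the study's own list. Of these, 0 passed in edgeR (0.544% of all genes), 3 had an unadjusted edgeR p under 0.05 (8.35% of all genes) and DESeq2 called 1 (2.08% of all genes). FOXA1 and FOXA2, the paralogs of FOXA3, were not analysed here. FOXM1, a forkhead factor of dividing cells, had between 1 and 140 reads per cow, and its log2 fold change was -1.05 (SE 0.84, edgeR adjusted p = 0.820). Without MNEB1, its highest cow, the FOXM1 value was 0.34, so it has no direction here.

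CEBPA, a leucine zipper factor of hepatocytes, averaged 82.0 CPM in MNEB (SD 32.0, n = 5) and 132 in SNEB cows (SD 40.0, n = 6) (log2 fold change 0.68, SE 0.26, edgeR adjusted p = 0.457). GATA4, which acts beside FOXA proteins in the early liver, had 51.5 ± 9.56 and 83.9 ± 33.5 CPM (log2 fold change 0.71, SE 0.24, edgeR adjusted p = 0.343). CREB3L3, a membrane-bound factor that responds to fasting, had 439 ± 98.0 and 643 ± 53.3 CPM (log2 fold change 0.55, SE 0.13, edgeR adjusted p = 0.105). All 3 liver factors with an identifier thus had values opposite in sign to that of FOXA3. CREB3L3 was called by DESeq2 (adjusted p = 0.0130), with 1 lane per cow (edgeR adjusted p = 0.0850) and after a stricter filter on low counts (edgeR adjusted p = 0.0964). Over 10 alternatives its adjusted p ran from 0.0130 to 0.582 by DESeq2 or edgeR.

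Of 17 genes whose control regions FOXA proteins are known to bind, 1 had an identifier. SLC2A2, the glucose transporter of the hepatocyte membrane, averaged 394 CPM in MNEB (SD 136, n = 5) and 232 in SNEB cows (SD 52.4, n = 6). Its log2 fold change was -0.76 (SE 0.21, edgeR adjusted p = 0.212), it was called by DESeq2 (adjusted p = 0.0589) and in the blocked fit by replicate number (edgeR adjusted p = 0.0460), and over 10 alternatives the adjusted p reached 0.590. In level SLC2A2 thus had the sign of FOXA3, but with group means removed its r with FOXA3 over the 11 cows was -0.15.

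The label of the tissue could not be checked against hepatocyte markers, since 0 of 14 had an identifier, nor could endothelial cells (0 of 12) or cholangiocytes (0 of 8). For mural and stellate cells 1 of 15 markers was named, CNN1, the calponin of smooth muscle, with 24.2 ± 8.42 CPM in MNEB and 50.3 ± 14.6 in SNEB cows (SD, log2 fold change 1.06, SE 0.26, edgeR adjusted p = 0.139, DESeq2 adjusted p = 0.0128). In sign, CNN1 thus went against HEYL between the groups, while with group means removed its r with HEYL was 0.77. The part of vessel wall cells in the HEYL values was not tested.

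For macrophages and leukocytes 2 of 10 markers were named, and both were scavenger or phagocytic receptors. MARCO had 139 ± 63.0 CPM in MNEB and 90.4 ± 51.5 in SNEB cows (log2 fold change -0.64, SE 0.38, edgeR adjusted p = 0.712). The MARCO value was -0.12 on lanes of flow cell B and -1.01 on those of flow cell C, and ran from -0.94 without SNEB3 to -0.41 without MNEB2, so its size is uncertain. TIMD4 had 61.1 ± 12.6 and 41.2 ± 18.9 CPM (log2 fold change -0.59, SE 0.25, edgeR adjusted p = 0.532). Among the markers it was MARCO whose values went most with FOXA3, at an r of 0.74 over the 11 cows and 0.68 with group means removed. For TIMD4, the other receptor of this list, these values were 0.41 and -0.04. Of 7 erythroid markers 1 was named, HBB, a globin gene with near-identical relatives, which reached 49.9 CPM in MNEB2 and at most 1.19 CPM in any other cow. Its log2 fold change was -4.08 (SE 1.32, edgeR adjusted p = 0.314), and -0.13 without MNEB2. Over the 6 lists as a whole, 4 of 66 markers could be followed, all of them again from the study's own list. Of these, 0 passed in edgeR (0.544% of all genes), 3 had an unadjusted edgeR p under 0.05 (8.35% of all genes) and DESeq2 called 1, CNN1 (2.08% of all genes). The part of any cell type in the FOXA3 values was not tested.

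Among 306 named genes with a mean of at least 10 CPM, those most like FOXA3 over the 11 cows included TBC1D30, a Rab GTPase activator (r = 0.87), the cell cycle inhibitor CDKN1A (0.81), the exostosin-like glycosyltransferase EXTL1 (0.81) and the Wnt coreceptor LRP6 (0.80). All 4 had lower means in SNEB cows, as a high r over both groups requires of any gene that resembles FOXA3. Over all 9796 genes of that level, the median r was 0.01. Named genes, here and for HEYL below, were those the study had listed for a group difference. Their direction between the groups is therefore a description and not a result.

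With group means removed, the closest named genes included ACACB, the acetyl-CoA carboxylase of the mitochondrial surface (r = 0.94), the phosphodiesterase GDE1 (0.87), the calcium-binding protein S100A12 (0.82) and the metalloreductase STEAP4 (0.80). ACACB was also the closest of all 9796 genes. It ran from 3.81 CPM in SNEB5 to 68.1 in SNEB3, with few reads in the lowest cows. Its mean was higher in SNEB than in MNEB cows, at 31.3 and 9.39 CPM. Its deviations from the group means thus went with those of FOXA3, though not cow by cow, since SNEB1 had more FOXA3 and less ACACB than SNEB3. Between the groups its mean went the other way.

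The relation of ACACB and FOXA3 did not rest on SNEB5 alone, since without that cow r was 0.84, the lowest of the 11 values with a cow left out. That of STEAP4 leaned on SNEB5, with an r of 0.49 without it. Counts of 1 animal share the library and its depth, and the genes were sought by their likeness among many, so these values are given as a description.

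For HEYL, the most alike named genes over the 11 cows included SHROOM1, an actin-binding protein (r = 0.94), the inositol phosphatase SYNJ2 (0.86), the Ras-like DIRAS3 (0.83) and the kelch protein ENC1 (0.81). SHROOM1 was the closest of all 9796 genes.

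With group means removed, the named genes closest to HEYL were the extracellular protease ADAMTS4 (r = 0.89), the signalling protein BCR (0.86), the actin-associated PALLD (0.84), SHROOM1 (0.83) and NES, the intermediate filament protein nestin (0.82). ADAMTS4, BCR, PALLD and NES had higher means in SNEB than in MNEB cows, and only SHROOM1 had the sign of HEYL in the group difference. Without any single cow, r stayed between 0.84 and 0.95 for ADAMTS4. The level of ADAMTS4 ran from 2.69 CPM in MNEB4 to 45.2 in SNEB6, so its lowest values rest on few reads. Among all 9796 genes, 5 lay closer to HEYL than ADAMTS4. None of the named genes closest to FOXA3 with group means removed was among those closest to HEYL.

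**Figure D5:**
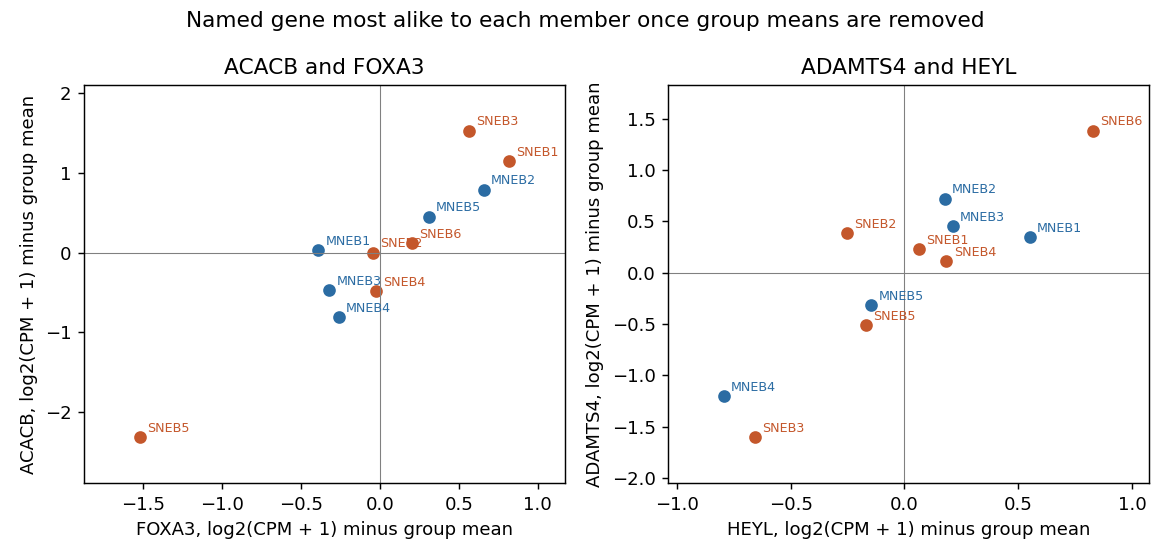
The named gene most like FOXA3 (ACACB, left) and HEYL (ADAMTS4, right) once group means are removed, each as log2(CPM + 1) minus the mean of the cow's group, with MNEB cows in blue and SNEB cows in orange. Cows of both groups lie along a rising line, with r = 0.94 on the left and r = 0.89 on the right, and SNEB5 is the point at the lower left for FOXA3.

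The counting did not state whether strand was used. In the later assembly ARS-UCD2.0, no annotated gene overlaps FOXA3, which lies between SYMPK and IRF2BP1, and none overlaps HEYL. Reads at the same position had been reduced to 1 within each lane, which holds down the counts of a highly covered gene more than those of a thinly covered one.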

How the data were processed

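The deposited files hold raw counts of reads per gene and lane, whole numbers with no normalization. Per the study's methods, the authors used Bowtie and the BCM4 assembly, kept only reads with a single alignment, reduced reads at the same position to 1 within a lane and obtained counts for Ensembl genes from HTSeq-count (union mode). The strand setting is not given in the sources used here.

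By the study's methods, the authors left a further MNEB cow that fell ill out of their comparison, and it was not analysed here. Lanes were summed per cow, and cows were grouped by their sample labels. Tests ran on genes that reached 5 reads in some cow, in edgeR 4.0.16 in R 4.3.3 (TMM, quasi-likelihood test, Benjamini-Hochberg over all genes tested, called at an adjusted p under 0.1), with DESeq2 1.42.0 as an alternative. The SE of a log2 fold change was obtained from its size and the F statistic, as the ratio of the size to the root of F. The steps were tested on simulated data. Intervals, correlations and plots used scipy 1.17.1, numpy 2.4.6 and matplotlib 3.10.9. Cows of 1 group were checked and differed by more than counting noise, with a chi-square per gene of at least 5.58.

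Gene names came from the name columns of the study's gene list, used only as a name table. FOXA3, HEYL and the gene lists were chosen with earlier results of these data known. By rule the text names both genes, the list members that passed, up to 3 members of each list with the highest level, other genes of the FOXA, HES and HEY families, and for each of FOXA3 and HEYL the 5 named genes with a mean of at least 10 CPM and the highest Pearson r of log2(CPM + 1), before and after group means were removed. Some of these genes are not reported here. DTX1, which DESeq2 called and this rule does not take, was added after seeing the data. Alternatives were another normalization, test or filter, 1 lane per cow, flow cells, the replicate number as a block, and each cow left out.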

Additional observations from a re-analysis of the deposited data

Results flagged for a closer look

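In 68 groups of 5 or 6 cows, over 33 genes and the ratio of FOXA3 to HEYL reads, 6 had a cow far from the others, by the gap to the nearest cow as a share of the group's range. The rule is meant to flag about 1 in 20 groups by chance. It was applied to CPM without a log, and each gene flagged was so for a highest cow. For these genes the rate is therefore only a rough guide. Neither FOXA3, HEYL nor their ratio was among the 6.

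DTX1 of SNEB3 had 122 CPM where the other SNEB cows had at most 51.3 (share 0.665). TIMD4 was also highest in SNEB3, at 77.2 CPM with at most 43.8 in the others (share 0.637). SNEB3 was the SNEB cow with the least HEYL, at 39.2 CPM.

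HBB of MNEB2 had 49.9 CPM where the other MNEB cows had at most 1.01 (share 0.980), and MNEB2 was also the cow with the most FOXA3.

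FOXM1 was far highest in a single cow of each group, with 34.3 CPM in MNEB1 (share 0.724) and 16.7 CPM in SNEB2 (share 0.690). DNER, an unusual Notch ligand chosen for mention after its values were seen, had 14 reads, or 4.18 CPM, in MNEB4 and at most 1.52 CPM in the other MNEB cows (share 0.722). What sets these cows apart was not tested.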

How the results depend on the processing

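The log2 fold changes of FOXA3 and HEYL kept their sign and stayed within 1 SE of the reported values over 10 alternatives and 11 fits with a cow left out. Over the alternatives, FOXA3 ran from -1.42 to -0.99 (lanes of flow cells C and B) and HEYL from -1.37 to -1.17. With a cow left out, FOXA3 ran from -1.39 without SNEB1 to -1.01 without SNEB5, and HEYL from -1.41 without SNEB6 to -1.03 without MNEB1. With 1 lane per cow, the groups of FOXA3 overlapped, and without the cows of flow cell A those of HEYL did not.

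Of all genes, 76 were called, 290 with DESeq2, 34 with cows of flow cells B and C only, and, chosen after seeing the data, 27 on lanes of flow cell B and 21 on lanes of flow cell C, which have fewer cows. On lanes of flow cell C, 76.2% of calls were higher in SNEB, against 60.5% as reported. With a cow left out the count ran from 40 (without MNEB5) to 125 (without MNEB1); it was 120 without SNEB3 and 50 without MNEB3.

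By the study's methods, cows were blocked by parity, body condition and earlier milk yield before allocation, and the sample labels do not give the blocks. Whether the 5 cows with shared numbers are pairs could not be settled from 5 correlations. The correlation of their deviations ran from -0.09 to 0.47 and was over 0.1 in 2 of 5. Among the MNEB cows, 1 correlated best with its own number. With the replicate block 80 genes were called, FOXA3 was -1.30 and HEYL -1.37, and 1 FOXA-bound gene, SLC2A2, passed.

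DESeq2 called 2 Notch pathway genes, 1 liver factor, 1 FOXA-bound gene and 1 cell marker, where edgeR called 0 of each; CREB3L3 also passed with 1 lane per cow, with the stricter filter and on lanes of flow cell B (1 gene each). With a cow left out the counts ran from 0 to 1 for the first 3 lists and from 0 to 2 for markers. The cows were MNEB1 (SLC2A2, CNN1), MNEB2 (CREB3L3), MNEB3 (NUMB), SNEB3 (NUMB, CNN1, TIMD4) and SNEB5 (DTX1, CNN1).

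The correlation of FOXA3 and HEYL in SNEB cows was -0.0655 with 1 lane per cow, and ran from -0.23 without SNEB5 to 0.38 without SNEB3, with exact permutation p of at least 0.450; without SNEB6 it was -0.0751. FOXM1 ran from -1.88 (lanes of flow cell B) to -0.48 (replicate block) over the alternatives and, with a cow left out, from -1.75 without SNEB2 to 0.34 without MNEB1, where it changed sign. Between flow cells, FOXA3 kept its call in 8 of 8 alternatives chosen after seeing the data, from 0.40 without SNEB1 to 0.19 without MNEB1 and SNEB6, and HEYL passed with relative log expression (0.12, edgeR adjusted p = 0.0806) and without SNEB1 (0.16, edgeR adjusted p = 0.0371), within a range of 0.0735 (without SNEB6) to 0.16 with a library left out. The cause of these changes was not tested.

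Depth limits the lowest counts, 81 reads of FOXA3 and 73 of HEYL in a cow, to a counting error of about 11.1% and 11.7%.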

Other observations

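Outside the lists, 2 further genes with an identifier belong to the surroundings of Notch and were chosen after their values were seen. DLK1, a Delta-like membrane protein that lacks the usual receptor-binding domain, ran from 1.04 to 20.8 CPM in MNEB cows and from 2.09 to 44.3 CPM in SNEB cows, from 2 to 195 reads. The groups overlapped, and the log2 fold change was 1.06 (SE 0.68, edgeR adjusted p = 0.754). DLK1 had at most 11 reads in MNEB2, MNEB3, SNEB2 and SNEB3, the cows run on a single lane, and at least 32 in the others.

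DNER had few reads, with at most 14 reads in an MNEB cow and at most 94 in an SNEB cow. Its log2 fold change was 1.63 (SE 0.91, edgeR adjusted p = 0.696). SNEB4 had 94 reads, or 13.6 CPM, and SNEB3 had 21, or 11.3 CPM, since their libraries differed in depth. SNEB6, the SNEB cow with the most HEYL, had 1 read, or 0.275 CPM.

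The number of FOXA3 reads for each HEYL read was higher on flow cell C than on flow cell B in 5 of the 5 libraries run on both. In MNEB5 it was 1.29 on flow cell B and 1.38 on flow cell C, in MNEB1 0.444 and 0.566, in SNEB5 0.333 and 0.362, and in SNEB1 1.45 and 1.67. The 3 lanes of SNEB4 gave 0.873, 0.854 and 0.672. The widest step was in SNEB6, from 0.444 on flow cell B to 0.690 on flow cell C.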
